A study of Mus musculus with 2 samples.

Results

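The 10 genes described here are imprinted genes tied to growth of the fetal liver, named by symbol: Meg3, Rian, Dlk1, H19, Igf2, Peg3, Peg10, Mest, Grb10 and Cdkn1c. Probe sets annotated to a single gene with such a symbol were taken, which gave 30 of the 34945 single-gene probe sets on the array and 9 of its 18193 genes. H19 has no probe set of its own, because its only probe set is annotated to a second gene as well. RNA was measured in primary hepatocytes of wild-type male FVB mice with Affymetrix whole-genome 3′ expression arrays, which read a transcript mostly near its 3′ end. At 6 to 8 weeks of age the mice received, by rapid injection of 2 ml of saline into the tail vein, 10 µg of the plasmid PT3EF5α EzrinT567D and 0.8 µg of pCMV/SB, a source of Sleeping Beauty transposase. Livers were digested with collagenase 1 week later, and cells were sorted into GFP- and GFP+ fractions, which the labels equate with absence and presence of Ezrin T567D. Ezrin ties the plasma membrane to cortical actin, and the T567D form carries an acidic residue at the site that is phosphorylated in the active protein. Both fractions are labelled as coming from injected livers, and whether they came from the same mice, and how many mice were pooled, is not given in the sources used here. Each group holds 1 array, so nothing below has a replicate error or a test. A description field conflicts with the other labels, since it gives 2 months for both samples, with chow for the negative and fast food for the positive one.

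Imprinted genes are transcribed mainly from the maternal or the paternal copy. Many paternally expressed members, such as Igf2, Peg3, Mest, Dlk1 and Peg10, favour fetal or placental growth, whereas the maternally expressed Cdkn1c, Grb10 and H19 tend to restrain it. Much of this set is active in the fetal liver and is turned down after birth, so that resting adult hepatocytes express little of it.

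Signals were MAS5 values on a linear scale, scaled to the same trimmed mean of 500.0 in both arrays. As a floor for background served the 95th percentile of 87 probe sets for chemosensory receptors (smell, pheromone, taste and trace amine), which was 272.4 for the negative array and 334.0 for the positive one. A probe set above the floor in a single array has only a bound on its ratio, and one below the floor in both arrays has none. The only error yardstick is the agreement between probe sets of the same gene. For 3141 genes the log2 ratio was compared between the brightest probe set and the next, and the difference had an SD of 0.41, or 0.46 over the 1889 of them whose dimmer probe set read under 1000. As a gauge of RNA integrity, Actb signal at the 3′ end over that at the 5′ end was 0.970 for the negative and 0.864 for the positive array, and 3.46 and 3.13 for Gapdh.

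Of the 9 imprinted genes with a probe set, 5 exceeded the floor in at least 1 array, as did 9904 of all 18193 genes. The plot shows all 30 probe sets. Probe sets of 4 genes, Peg3, Rian, Meg3 and Grb10, exceeded the floor in both arrays. Mest passed in the negative array alone, and Dlk1, Igf2, Peg10 and Cdkn1c in neither. By probe set, 7 of 30 were above the floor in both arrays, 3 in a single array and 20 in neither. Of all 34945 single-gene probe sets on the array, 18794 were above it in neither. Of the 7 measured in both arrays, 6 read higher in Ezrin T567D-positive hepatocytes and 1 lower, with a median log2 ratio of 0.68. A ratio above 1 was seen for 52.2% of all 13196 such probe sets and a ratio below 1 for 47.8%. Among the 7425 of them with a mean signal under 1000 the shares were 60.9% and 39.1%, so the direction alone says little for dim probe sets. At least 2-fold higher signals were found for 2 of the 7, against 1.15% of all measured probe sets and 1.32% of the dim ones, and with the floor at the 99th percentile 1 of them, that of Meg3, dropped out. None of the 7 was at least 2-fold lower, against 0.508% of all and 0.418% of the dim ones. With bounds included, 1.26% of probe sets and 1.14% of genes above the floor in at least 1 array were at least 2-fold higher, and 0.514% and 0.596% lower. The 7 probe sets belong to 4 genes and 3 of them to Peg3, so they are not independent.

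**Figure D1:**
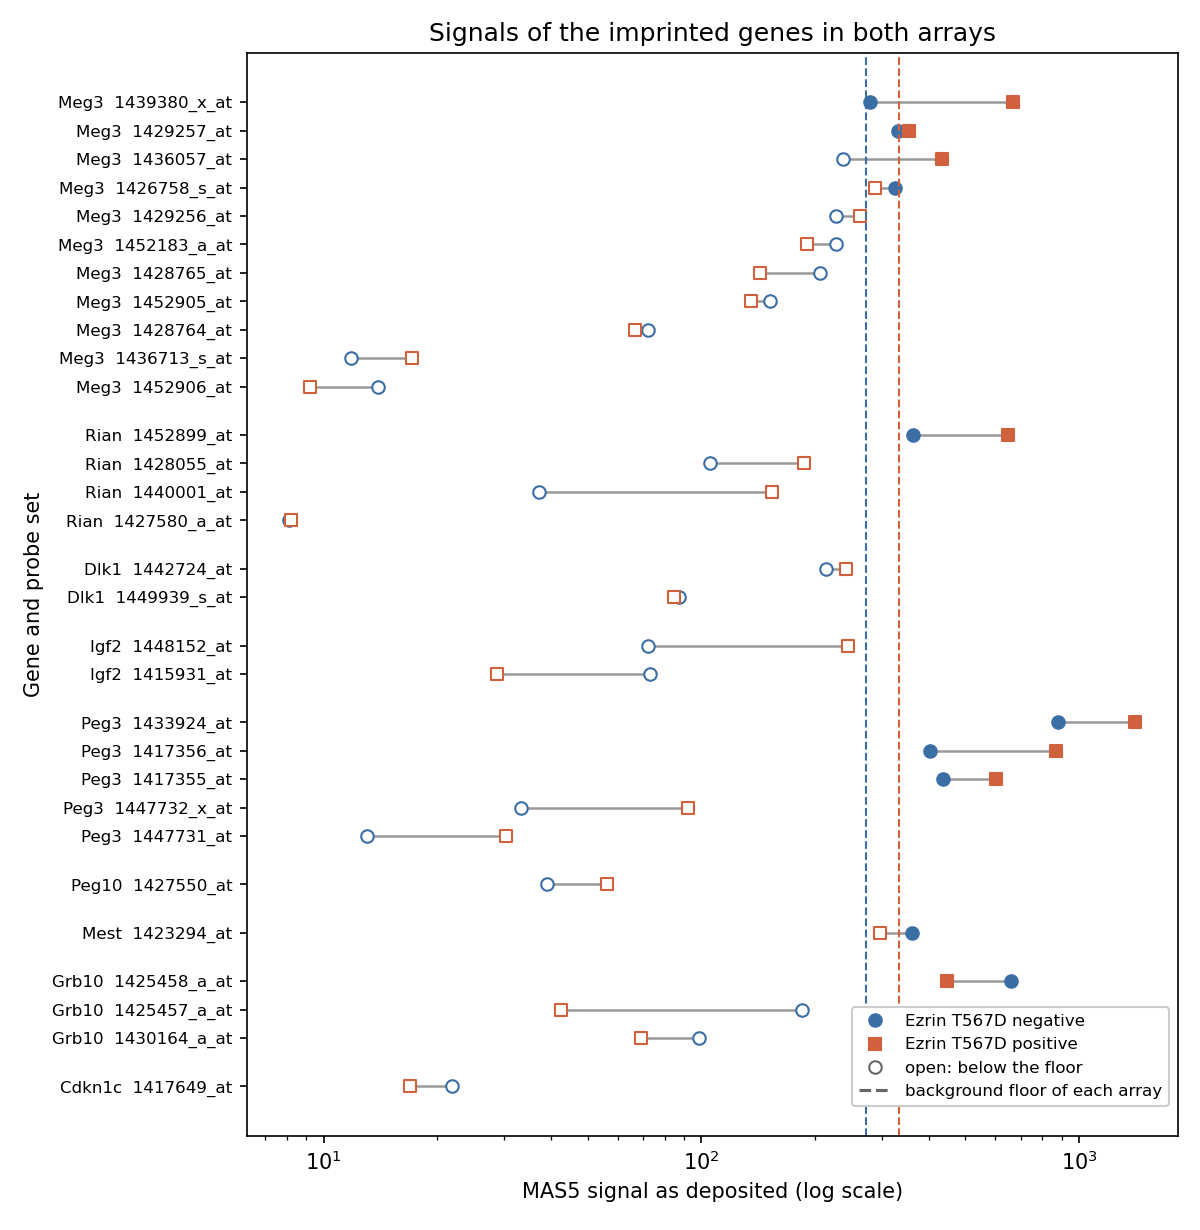
MAS5 signal (log axis) of every probe set of the imprinted genes, with circles for the Ezrin T567D-negative and squares for the positive array; open symbols lie below that array's background floor, drawn as a dashed line at 272.4 and 334.0. The 3 Peg3 probe sets above both floors lie farther right in the positive array, and the 1 of Grb10 farther left. The 11 Meg3 probe sets go both ways, with 7 of them below both floors. Pairs of open symbols lie within background, so their direction says little.

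The promoters of the genes with measured signals are shown because these genes read higher (Peg3, Rian and a part of the Meg3 probe sets) or lower (Grb10) in the same pair of arrays. Each sequence covers 250 bases before to 50 bases after a RefSeq transcription start on the transcribed strand, build GRCm38.p6. RefSeq promoters were matched for 7 of the 10 genes, with 14 starts in all, and H19, Peg10 and Cdkn1c were not in the table. Capitals mark matches, on either strand, to CATTCC, the core of the site bound by TEAD factors, the DNA-binding partners of Yap, or to TGCCGC, the core bound by ZFP57, a zinc finger protein that protects imprints. The motif GCCATNTT for YY1 was searched as well. No match overlapped another.
Peg3, chr7:6730370-6730669, minus strand: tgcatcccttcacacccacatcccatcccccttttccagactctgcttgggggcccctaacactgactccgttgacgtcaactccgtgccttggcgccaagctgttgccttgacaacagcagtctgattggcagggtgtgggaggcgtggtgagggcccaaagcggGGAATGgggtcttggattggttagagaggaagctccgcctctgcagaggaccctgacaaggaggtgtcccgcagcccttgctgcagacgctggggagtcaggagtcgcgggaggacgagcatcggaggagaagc
Rian, chr12:109603695-109603994, plus strand: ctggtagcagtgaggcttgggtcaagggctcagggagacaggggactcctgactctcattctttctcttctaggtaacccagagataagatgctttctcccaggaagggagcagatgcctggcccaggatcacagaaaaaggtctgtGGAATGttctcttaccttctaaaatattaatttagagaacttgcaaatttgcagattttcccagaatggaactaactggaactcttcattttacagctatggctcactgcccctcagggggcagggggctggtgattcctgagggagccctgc
Meg3 (upstream start), chr12:109540746-109541045, plus strand: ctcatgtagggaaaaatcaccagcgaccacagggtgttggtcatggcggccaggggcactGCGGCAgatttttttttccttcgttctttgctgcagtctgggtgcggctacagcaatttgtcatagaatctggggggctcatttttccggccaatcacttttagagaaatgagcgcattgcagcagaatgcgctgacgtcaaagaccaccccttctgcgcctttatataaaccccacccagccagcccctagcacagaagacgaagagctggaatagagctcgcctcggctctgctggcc
Grb10 (upstream start), chr11:12037371-12037670, minus strand: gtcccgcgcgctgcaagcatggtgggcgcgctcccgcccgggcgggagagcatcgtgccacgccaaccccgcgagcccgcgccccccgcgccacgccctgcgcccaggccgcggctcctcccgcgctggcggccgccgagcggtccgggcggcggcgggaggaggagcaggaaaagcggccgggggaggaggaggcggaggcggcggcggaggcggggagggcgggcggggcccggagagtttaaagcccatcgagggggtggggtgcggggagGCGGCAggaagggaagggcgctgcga
The Peg3 and Rian windows each hold 1 match to the TEAD core and the Meg3 and Grb10 windows each 1 match to the ZFP57 core, while the YY1 motif occurs in none of the 14 windows. Meg3 and Grb10 each have a second RefSeq start, not printed, whose window holds none of the 3 motifs. Over the 14 windows, 5 hold the TEAD core, including 3 of the 4 Igf2 starts, and 5 the ZFP57 core. Of these 5, 2 are Mest starts whose windows overlap almost fully and hold the same 2 matches, so the windows are not independent. Among all 32851 RefSeq promoter windows the TEAD core occurs in 14.7%, the YY1 motif in 6.05% and the ZFP57 core in 11.6%. The dinucleotide CG, where DNA is methylated, occurs 45 times in the upstream Grb10 window and 9 times in the other, 13 times each in the printed Peg3 and Meg3 windows and 0 times in the Rian window, against a median of 7 over all windows. These matches describe letters in a window and do not show binding.

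Peg3, a paternally expressed zinc finger gene also called Pw1, gave the brightest reading of the set relative to its floor. Its 3 probe sets above both floors read higher in the positive array. Probe set 1433924_at gave 879.6 for the negative fraction and 1408.0 for the positive, 1.60-fold higher. Probe set 1417356_at read 402.8 and 868.5, 2.16-fold higher, and 1417355_at read 437.0 and 603.4, 1.38-fold higher. All 3 lay above both floors and pointed the same way, with log2 ratios of 0.68, 1.11 and 0.47 and a mean of 0.75 ± 0.33 (SD over 3 probe sets of the same RNA, not replicates). Ratios above these were found for 4.15%, 0.773% and 10.4% of all probe sets measured in both arrays. The other 2 Peg3 probe sets were below both floors. They read 33.3 and 92.4 for 1447732_x_at and no more than 30.4 in either array for 1447731_at. Their higher readings in the positive array lie within background and say little about direction. Usp29, the gene that shares the Peg3 promoter region and was picked here after its values were seen, was below the floor in both arrays, at 71.8 and 259.6 for 1427551_at and 17.8 and 64.4 for 1419237_at. Zim3, another gene of the Peg3 cluster, read 270.3 and 377.0 and was at least 1.38-fold higher, whereas Zim1, likewise picked after its values were seen, read 105.5 and 73.0, below both floors.

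Rian and Meg3 are maternally expressed long noncoding RNAs of the Dlk1-Dio3 cluster, where they are transcribed along with hosted small RNAs. For Rian, 1452899_at gave 364.4 for the negative fraction and 649.8 for the positive, 1.78-fold higher (log2 ratio 0.83), and 2.17% of all probe sets measured in both arrays had a higher ratio. The other 3 Rian probe sets were below both floors, at 105.4 and 187.5 for 1428055_at, 37.2 and 154.1 for 1440001_at, and 8.1 and 8.2 for 1427580_a_at. Rian therefore rests on a single readable probe set.

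The 11 Meg3 probe sets did not share a direction, but 7 of them lay below both floors. Probe set 1439380_x_at read 279.0 and 670.5, 2.40-fold higher (log2 ratio 1.26), and 0.349% of all probe sets measured in both arrays had a higher ratio. Its negative signal was only 1.02 times the floor, and the suffix _x_at marks a probe set with probes that can match other transcripts. By contrast, 1429257_at read 330.6 and 354.0, a log2 ratio of 0.10 that turned to -0.01 after quantile normalization and -0.02 after loess. The log2 ratios of these 2 probe sets differ by more than the 0.46 SD between dim probe sets of other genes, and 3.49% of such gene pairs differed by 2-fold or more. Probe set 1436057_at passed the floor only in the positive array (236.9 and 434.2), at least 1.59-fold higher. This bound, 0.67 in log2, depends on the floor and was 0.36 with the floor at the 99th percentile. Probe set 1426758_s_at went the other way, with 325.9 above the negative floor and 288.8 below the positive one, too close to the floors for a bound. The remaining 7 were below both floors. Of these, 1429256_at read 226.6 and 263.4, and 1436713_s_at read 11.8 and 17.1, both higher in the positive array. Lower in the positive array were 1452183_a_at (227.6 and 190.6), 1428765_at (206.6 and 143.4), 1452905_at (151.7 and 135.7), 1428764_at (72.2 and 66.9) and 1452906_at (13.9 and 9.2). In all, 5 Meg3 probe sets read higher and 6 lower, and all of the lower ones except 1426758_s_at are readings below both floors.

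The other transcripts of the Dlk1-Dio3 cluster read about alike in both arrays or lay under the floor. Mirg, the noncoding RNA downstream of Rian, named after its values were seen, read 577.9 and 626.6 in 1440097_at, a log2 ratio of 0.12, and 111.2 and 30.3, below both floors, in 1457030_at. Dlk1, a paternally expressed transmembrane protein of hepatoblasts related to Notch ligands, was below the floor in both arrays in both of its probe sets, at 213.2 and 241.4 for 1442724_at and at 87.2 and 84.6 for 1449939_s_at. Rtl1 and Dio3 have no probe set of their own here.

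Grb10, an adaptor that binds the insulin and IGF1 receptors and dampens their signal, was the only member measured in both arrays that read lower in Ezrin T567D-positive hepatocytes. Probe set 1425458_a_at gave 660.1 for the negative fraction and 447.6 for the positive, 1.47-fold lower (log2 ratio -0.56). A lower ratio was found for 4.24% of all probe sets measured in both arrays. Both other Grb10 probe sets were below both floors, at 184.2 and 42.6 for 1425457_a_at and at 98.5 and 69.3 for 1430164_a_at. Their lower readings in the positive array lie within background. Grb10 therefore rests on 1 readable probe set, which carries the suffix _a_at. Of its neighbours, Ddc, the decarboxylase that makes dopamine and serotonin, read 3498.1 and 2526.3 (log2 ratio -0.47), while Cobl, picked after its values were seen, was below both floors at 214.3 and 43.9. Mest, a paternally expressed hydrolase-like protein, read 360.7 and 296.9, the second below its floor, so it was at least 1.08-fold lower in the positive array. Copg2, which overlaps the Mest locus, read 369.1 and 493.3 (log2 ratio 0.42), and Cep41, also next to Mest, read 219.4 and 437.5, at least 1.61-fold higher, with 3 further probe sets below both floors.

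The growth factor and the cell cycle inhibitor of the set were not detectable above background. Igf2, the main fetal IGF, read 72.1 and 244.6 in 1448152_at and 73.1 and 28.7 in 1415931_at. Both probe sets lay below both floors and pointed in opposite directions. Cdkn1c, which encodes the CDK inhibitor p57, read 21.9 and 16.9, and Peg10, a retrotransposon-derived gene needed by the placenta, read 39.0 and 56.1. Sgce, which shares a promoter region with Peg10, was below both floors as well, at 263.5 and 33.2. Signals below both floors differ widely by themselves: of 18794 such single-gene probe sets, 34.0% differed by at least 2-fold between the arrays. Among the 20 of the imprinted genes the share was 30.0%, with 10 higher and 10 lower in the positive array. No fold is given for them.

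**Figure D2:**
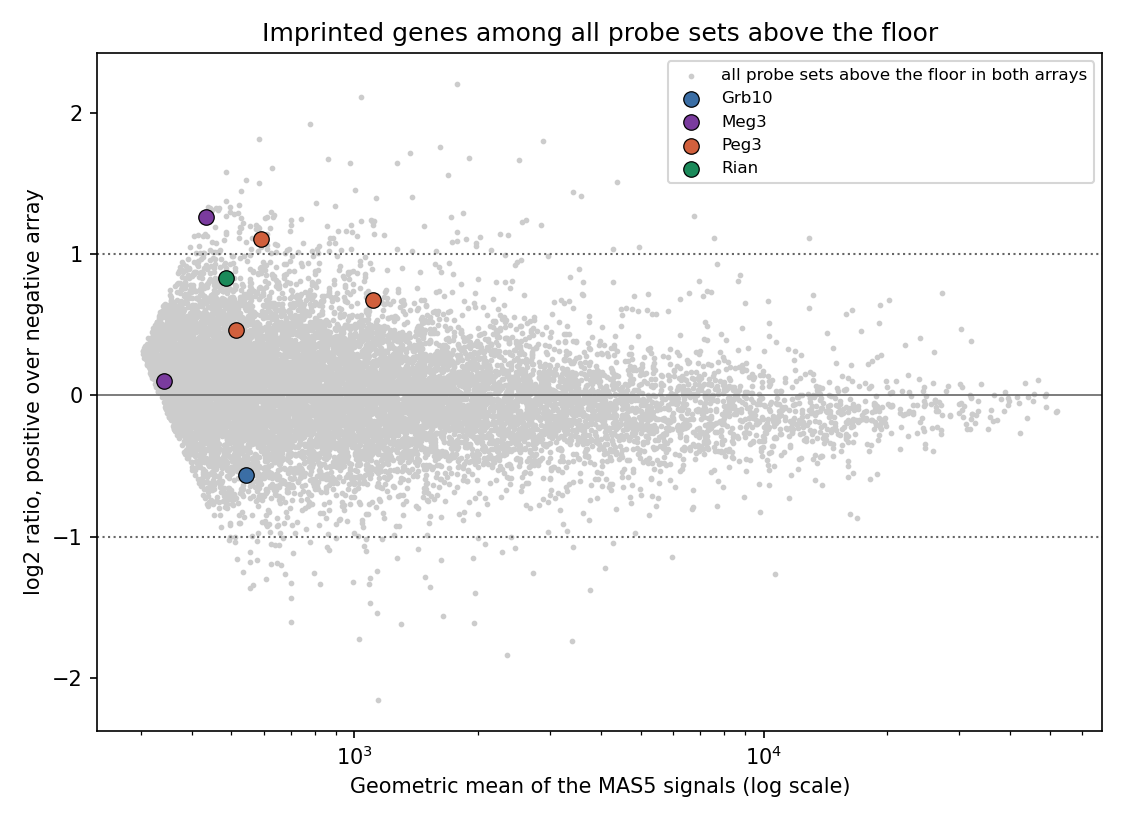
Log2 of positive over negative signal against the geometric mean signal (log axis) for all 13196 single-gene probe sets that pass both floors (grey), with the 7 of Meg3, Rian, Peg3 and Grb10 in colour and 2-fold limits dotted. Of the coloured points, 1 Meg3 and 1 Peg3 probe set lie above the upper limit, and Grb10 lies at -0.56.

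Genes that share a cluster or the imprinted state with the members showed no common direction. Beside the members, 40 neighbours in the imprinted clusters were listed, and 15 were above the floor in both arrays by their brightest probe set, 6 higher and 9 lower, with a median log2 ratio of -0.15 against 0.00 over all 8268 such genes. None of the 15 differed by 2-fold, against 1.00% of all genes higher and 0.617% lower. Cep41, Zim3 and Tssc4 (254.1 and 413.9, at least 1.52-fold higher) and Ddc had the largest ratios or bounds. Of 42 imprinted genes elsewhere in the genome, 15 were measured in both arrays, with 8 higher, 7 lower and a median of 0.04. Impact, an inhibitor of the kinase Gcn2, was highest (311.4 and 439.2, log2 ratio 0.50), and the amino acid transporter Slc38a4 (11274.4 and 8600.0), the proteoglycan Dcn (495.3 and 380.5) and Blcap (967.3 and 789.0) had log2 ratios of -0.39, -0.38 and -0.29. Plagl1, a zinc finger factor that regulates other imprinted genes, read 371.0 and 251.0, at least 1.11-fold lower.

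IGF and insulin signalling, into which Igf2 and Grb10 feed, was measured in 21 of 28 listed genes apart from those 2 members, with 11 higher, 10 lower and a median of 0.04. Igfbp1, a secreted IGF-binding protein induced in fasting, was 2.41-fold higher (4343.9 and 10461.9). Igfals, which holds IGFs in the large circulating complex, read 1414.5 and 830.8 (log2 ratio -0.77), and the receptor substrate Irs1 read 676.0 and 417.3 (-0.70). Ratios of the receptors were near 1: Igf2r, which clears Igf2, read 1489.1 and 1600.4 (0.10), Insr read 2185.9 and 2129.3 (-0.04), and all 5 Igf1r probe sets were below both floors. Igf2bp3, an RNA-binding protein of fetal tissues that binds Igf2 mRNA, read 309.8 and 526.0 (0.76), with its other 5 probe sets below both floors.

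Further markers of fetal or progenitor liver were read in the same way. Of 26 listed, 23 had a probe set, 6 were measured in both arrays and 14 lay below both floors. Background was exceeded by 9 of the 23, against 9904 of all 18193 genes, so genes below both floors were common outside this list too. Of the 6, 4 read higher and 2 lower, with a median of 0.40, and none reached 2-fold. Igf2bp3 led, followed by the cyclin Ccnd2 (370.5 and 569.4, log2 ratio 0.62), and Gpx3 (205.4 and 432.2) and Igf2bp1 (137.1 and 417.9) were at least 1.59-fold and 1.53-fold higher. All other probe sets of Ccnd2 and of Igf2bp1 were below both floors and pointed both ways. The fetal serum protein Afp was below both floors in all 5 of its probe sets, with 213.1 and 216.3 in the brightest, and so was the fetal heparan sulfate proteoglycan Gpc3 at 186.2 and 315.6. Among CDK inhibitors other than Cdkn1c, Cdkn1b (1095.9 and 1460.8) had a log2 ratio of 0.41 in its brightest probe set and -0.26 in the other, Cdkn2c (540.5 and 588.1) had 0.12, and Cdkn1a (215.5 and 391.2) was at least 1.44-fold higher.

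Factors that keep imprints or repress fetal genes after birth were measured in 16 of 24 cases, 11 higher and 5 lower, with a median of 0.17 and none at 2-fold. The DNA methyltransferase Dnmt3a read 960.9 and 1420.4 (0.56), the chromatin protein Smchd1 579.6 and 854.5 (0.56), the histone methyltransferase Ehmt2 663.2 and 888.9 (0.42) and Arid4b 899.4 and 1180.8 (0.39, with -0.39 in another probe set). Zhx2, which represses Afp and H19 in postnatal mouse liver, read 387.2 and 451.8 (0.22). Zbtb20, a repressor of Afp, read 7967.3 and 8574.2 (0.11) in its brightest probe set, and its other probe sets above both floors ranged from -0.16 to 0.79 (608.1 and 1053.0 in 1437066_at).

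**Figure D3:**
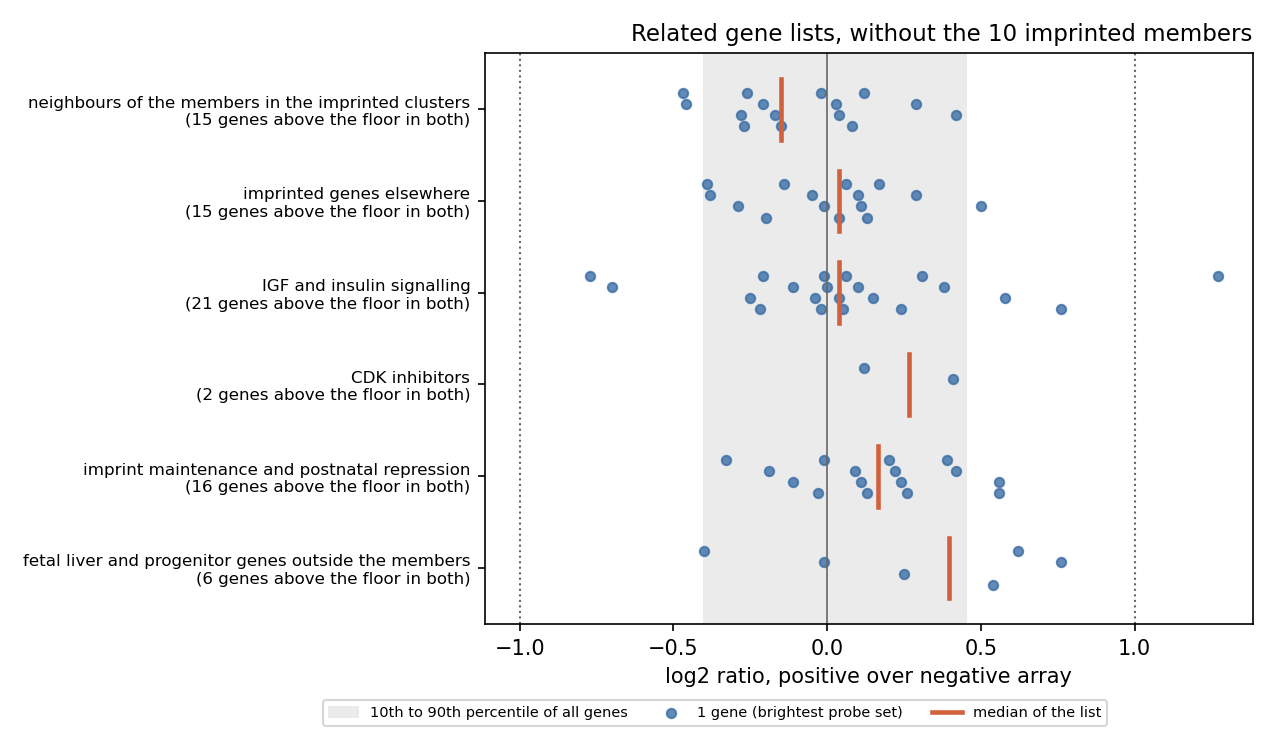
Log2 of positive over negative signal for genes of 6 related lists above the floor in both arrays, without the imprinted members; each point is a gene by its brightest probe set, the bar is the list's median and grey spans the 10th to 90th percentile of all genes (-0.40 to 0.45). Medians lie at -0.15 for cluster neighbours and 0.40 for the 6 fetal liver genes, and Igfbp1 at 1.27 is the only point past 2-fold.

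Markers checked the hepatocyte label and the makeup of both fractions. All 10 hepatocyte genes with a probe set were above the floor in both arrays, with 9 lower, 1 higher and a median log2 ratio of -0.19. Zonal markers differed between the fractions: 11 of 11 measured pericentral genes read higher in the positive array (median 1.11) and 9 of 10 periportal genes lower (median -1.07). For other cells, fewer cells of a type and less RNA per cell cannot be told apart in bulk RNA. Of 12 sinusoidal endothelial markers 9 passed the floor in 1 or both arrays, with Pecam1, Lyve1 and Emcn below both floors. Signals of the 9 summed to 4536.2 for the negative and 5012.0 for the positive array, and those of all 12 to 4958.0 and 5486.0. Of 12 stellate and fibroblast markers 7 passed it, Dcn among them, with Des, Pdgfrb, Lum, Hgf and Hand2 below both floors. The sum was 3408.9 and 3508.6 over the 7, slightly higher in the positive array, and 4018.7 and 3950.9 over all 12, slightly lower. Of 12 Kupffer and macrophage markers 5 passed it, with Adgre1, Vsig4, Timd4, Marco, Cd68, C1qa and C1qc below. The sum was 3182.0 and 2490.8 over the 5 and 4189.4 and 3122.2 over all 12. For the remaining types the sums cover every marker with a probe set, above the floor or not. Cholangiocyte markers exceeded the floor in 2 of 8 cases (2391.4 and 3084.3), with Krt7, Krt19, Epcam, Sox9, Cftr and Mmp7 below, lymphocyte markers in 2 of 9 (1362.7 and 1461.0), erythroid markers in 2 of 4 (1288.5 and 953.3) and neutrophil markers in 0 of 7 (653.9 and 834.9). The part of zonal position, of these other cells or of the diet label in the readings of Peg3, Rian, Meg3 and Grb10 was not tested.

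**Figure D4:**
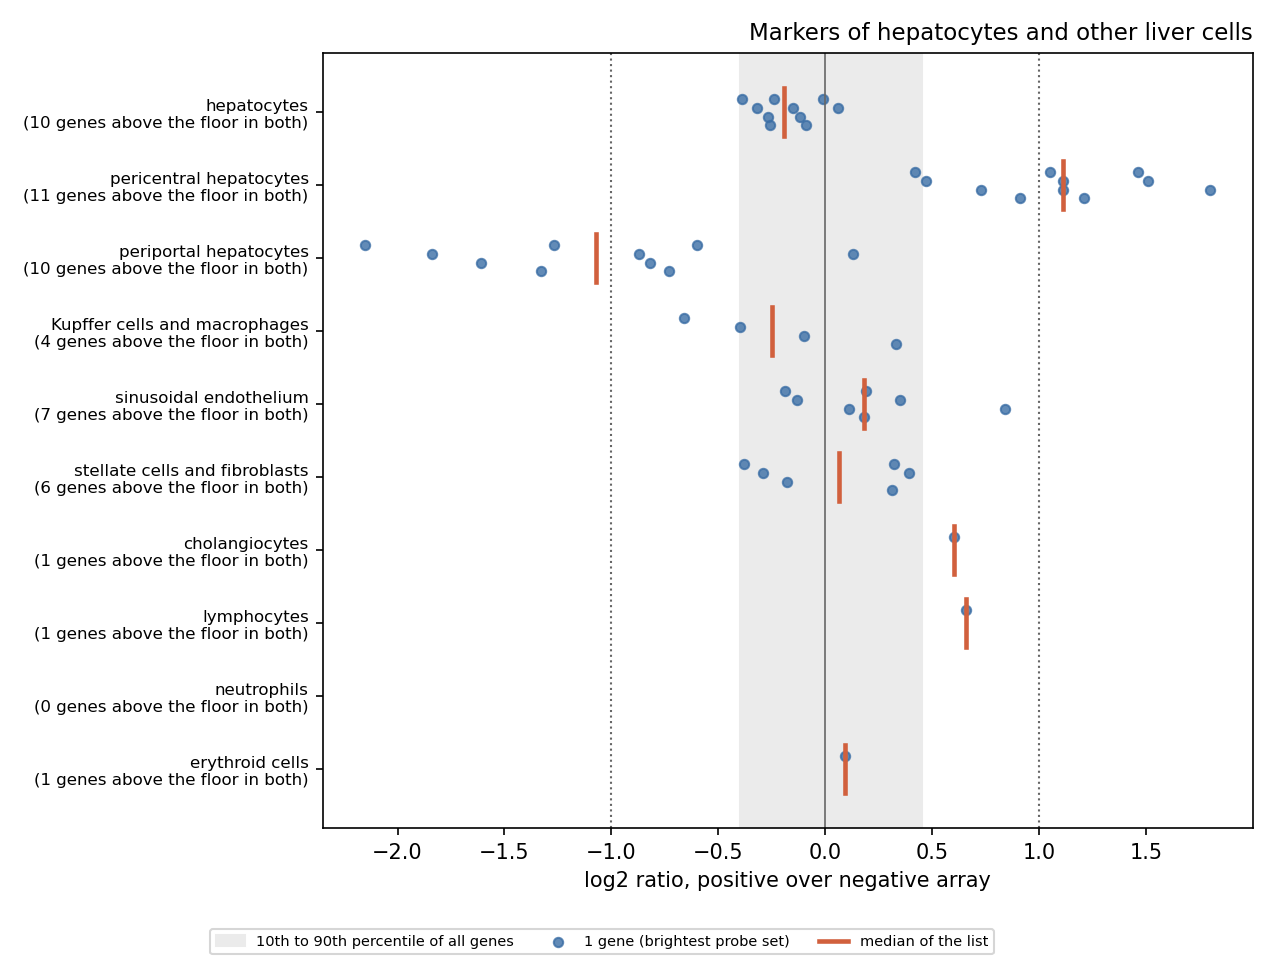
Log2 of positive over negative signal for marker genes above the floor in both arrays, by cell type; points are genes by their brightest probe set, bars are medians and grey spans the 10th to 90th percentile of all genes (-0.40 to 0.45). Pericentral markers lie right of 0 and periportal markers left of it with 1 exception, while sinusoidal endothelial and stellate markers lie on both sides of 0.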

How the data were processed

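The authors deposited 1 linear intensity per probe set, made with MAS5 per the submitters' processing notes, whose version and settings those notes leave out. Among 45101 probe sets, 34945 carry 1 gene symbol, 932 several, 9160 none and 64 are controls, in GEO's platform annotation; 34741 were matched by Entrez ID to RefSeq and 0 symbols changed. Probe sets with several symbols were left out. With 1 array per group, positive signal was divided by negative signal on the log2 scale, with no p-value. A gene is read by its brightest probe set. A signal under its floor was raised to the floor to give a bound, dropped where under 1-fold. The members and gene lists were chosen with earlier results of these data known. Named genes are all members, up to 4 per list with the largest ratio or bound, and Igf2r, Igf1r, Insr, Gpc3, Afp, Zhx2, Zbtb20, Plagl1, Dio3, Rtl1, Sgce and Copg2, which the rule lists by name; other genes given with values outside the marker lists are marked in the text. The ratio and bound calculation was tested on simulated data. Python 3.11.15, pandas 2.3.3, numpy 2.4.6, scipy 1.17.1, statsmodels 0.14.6 (loess) and matplotlib 3.10.9 were used. The number of arrays limits the precision. Alternatives were 3 scalings, other floors, a pseudocount, the mean over probe sets and removal of probe sets with a suffix.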

Additional observations from a re-analysis of the deposited data

How the results depend on the processing

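No paired analysis was possible because each group holds 1 array. Under 10 alternatives, 112 of 114 ratios of the imprinted genes kept their sign, the 2 exceptions being Meg3 1429257_at. Of the 114, 110 moved by less than 0.29, the 0.41 SD between probe sets of a gene divided by the square root of 2. With a dim second probe set this value was 0.33. Many of the 114 could not change sign. Other floors leave the ratio of a probe set unchanged as long as both signals stay above them. Where 1 signal falls below, a bound of the same direction replaces the ratio or none is given. For Meg3 1439380_x_at that bound was 0.98 with the floor at the 99th percentile. A pseudocount keeps the direction of a ratio. Only the 3 scalings and, for genes, the choice of probe sets could turn a sign. The 114 also count a gene's brightest probe set again as the gene. The log2 ratio ranged from 0.62 to 0.68 for Peg3 1433924_at, 0.95 to 1.11 for Peg3 1417356_at, 0.69 to 0.83 for Rian 1452899_at, 0.98 to 1.26 for Meg3 1439380_x_at and -0.64 to -0.47 for Grb10 1425458_a_at. The log2 ratio or bound of Meg3 1436057_at ranged from 0.36 to 0.87, the latter with no floor. Read as a gene, Meg3 went from 1.26 to 0.68 when its probe sets were averaged. It went to 0.10 when those with a suffix (_x_at, _s_at, _a_at) were dropped. The count of probe sets of the imprinted genes at least 2-fold higher was 1 instead of 2 with the floor at the 99th percentile, with a pseudocount of 100 and without suffixed probe sets. The 1 lower became 2 after quantile normalization and loess and 0 without suffixed probe sets. Without a floor all 30 counted, 17 higher and 13 lower, with 6 and 2 at least 2-fold higher and lower. Over all probe sets, 203 were at least 2-fold higher and 83 lower, bounds included, which became 3649 and 3685 with no floor, 114 and 51 with the pseudocount, and 54 lower without suffixed probe sets. Over genes the counts were 113 and 59, against 1629 and 1655 with no floor, 62 higher with the pseudocount, and 71 and 36 as the mean over probe sets. The mean covers only genes with a probe set above both floors and uses no bounds. For genes whose brightest probe set passed both floors, the counts without bounds were 83 and 51. The median of cluster neighbours was -0.02 with no floor and as the mean over probe sets. A floor without receptor pseudogenes, chosen after seeing the data, is among the alternatives. The median of fetal liver genes was 0.25 with the floor at the 99th percentile or 1 floor for both arrays, and 0.54 with no floor. Of the 30 probe sets of the set, 20 lie below both floors, some of them far below, where arrays limit what can be read.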
